A study of Mus musculus with 11 samples.

Results

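Total gene expression in the hippocampus was compared between old and young female mice born to a BL6 mother and a CAST father. BL6 is a common laboratory strain and CAST is a wild-derived strain, and the F1 mice of this cross carry a maternal BL6 and a paternal CAST copy of each autosome. The mice were chosen by the strain of the mother, which gave 6 of the 11 mice of the series. Of these 6, the 3 old mice were 101, 101 and 104 weeks of age and the 3 young mice were 9 weeks of age, and no treatment or transgene is given for any of them. Old and young mice thus had the same sex and the same direction of cross. The other 5 mice were female F1 mice of the reverse cross, with a CAST mother and a BL6 father, and were used only to check direction: 2 were old (103 weeks) and 3 were young (8, 8 and 9 weeks). The labels number the mice, so each library is read as 1 animal. The study asked whether imprinting and the silencing of an X chromosome stay stable in the aged brain, and looked at the machinery of DNA methylation.

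The hippocampus holds the pyramidal cells of the CA fields and the granule cells of the dentate gyrus, where new neurons are still made in the adult. Microglia, the resident phagocytes of the brain, and astrocytes are known to take on activated states with age, in which complement and antigen presentation genes are often higher. Neural stem cell division and the production of newborn neurons are known to decline over the life of a mouse. In RNA of whole tissue, fewer cells of a type and less RNA per cell cannot be told apart.

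The 6 libraries held 111.1 to 190.5 M counts over 55401 genes, and no pair of the same group was alike within counting noise. Every marker of the CA1 list (8 genes), the CA3 and CA2 list (12 genes) and the dentate granule cell list (12 genes) passed the filter on low counts. The libraries differed in what else they held. Young mice 1 and 3 had the lowest summed CA1 markers, 430 and 474 CPM (counts scaled to a common library size by TMM, expressed per 1000000), against 766 CPM in young mouse 2 and 809 to 934 CPM in the old mice, so this sum moved with age. Young mouse 3 also had 3316 CPM of summed striatal markers, against 427 to 680 CPM in the other 5 mice. The summed choroid plexus markers were highest in old mouse 2 (1565 CPM) and young mouse 2 (1255 CPM), and 166 to 528 CPM in the other mice. The CAST-mother libraries were uneven too. Their summed striatal markers were 2002 CPM in old mouse 1 and 5063 CPM in young mouse 2, against 560 to 760 CPM in the others. Summed markers of thalamic neurons were 1270 CPM in young CAST-mother mouse 1, against 261 to 410 CPM in the other CAST-mother mice.

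**Figure D1:**
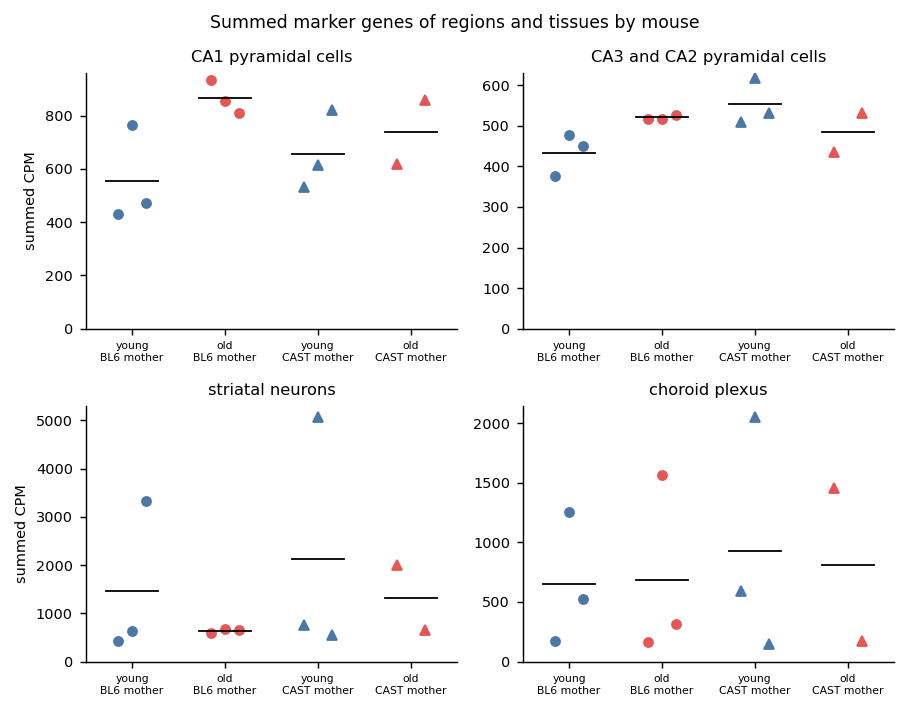
Summed CPM of the CA1, CA3 and CA2, striatal and choroid plexus marker lists in each of the 11 mice. Each point is 1 mouse, circles are mice with a BL6 mother and triangles mice with a CAST mother, and lines are group means. Young mouse 3 of the BL6-mother cross stands at 3316 CPM in the striatal panel, and young mice 1 and 3 are lowest in the CA1 panel.

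Few genes separated the ages past the test, and most of those that did were higher in old mice. Of 29428 genes tested, 9 were called at an edgeR adjusted p under 0.05, which is 0.0306% of genes: 8 rose and 1, Car8, fell in old mice. At an unadjusted p under 0.05 there were 3106 genes, 1264 higher and 1842 lower. The called genes hold a complement component, an antiviral protein, a pore-forming protein of phagocytes, a cell adhesion gene and a developmental transcription factor, with 3 predicted genes. All 9 had no overlap between the ages, which adds little because they were called in these same mice. Of all tested genes, 7.12% had all 3 old above all 3 young mice and 6.98% all 3 below. The count of called genes depended on the tool, on the filter on low counts and on single mice. DESeq2, run on all 44362 genes with any count, called 586 genes (215 higher, 371 lower), the 9 among them. Leaving out young mouse 1 or young mouse 2 left 0 genes called by edgeR, leaving out old mouse 1 or old mouse 2 left 1, leaving out young mouse 3 left 4, and leaving out old mouse 3 gave 43.

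C4b encodes complement component 4b, which tags targets for uptake by phagocytes (chromosome 17, 34728380 to 34743882, GRCm38). It measured 134, 163 and 118 CPM in the old mice and 24.8, 25.8 and 18.9 CPM in the young mice. Every old mouse was thus several times above every young mouse. C4b rose 5.96-fold, from 23.2 ± 3.70 to 138 ± 22.9 CPM (SD, n = 3 in each group), or 2.58 on the log2 scale (SE 0.177, edgeR adjusted p = 0.00355). In the authors' deposited TPM, a level per gene length, C4b averaged 8.16 in young and 53.2 in old mice. In CAST-mother mice it measured 116 and 151 CPM in old and 18, 22.4 and 29.5 CPM in young mice, a log2 difference of 2.52. C4b was called in 17 of 20 alternative analyses, and without young mouse 1 or young mouse 2 its edgeR adjusted p was 0.0501 or 0.0524. Its near-identical neighbour C4a differed by 1.17 on the log2 scale, and counts can be misplaced between the pair. The other called genes were less stable. They were called in 5 (Onecut1, Gm20649 and Gm16551) to 9 (Zc3hav1) of 20 alternatives, and Gm12056 in 7 of 19. When single mice were left out, C4b was called in 4 fits, Car8 in 2 and each of the others in 1.

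Zc3hav1 encodes the zinc-finger antiviral protein, which binds foreign RNA and promotes its decay (chromosome 6, 38305286 to 38354603). Its values were 10.4, 9.87 and 11.3 CPM in old mice and 3.14, 3.52 and 3.06 CPM in young mice. The spread within each age was small beside the gap between them. Zc3hav1 rose with a log2 change of 1.69 (SE 0.162, edgeR adjusted p = 0.0309), and differed by 1.28 in CAST-mother mice.

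Mpeg1 encodes perforin-2, a pore-forming protein of macrophages and microglia (chromosome 19, 12460779 to 12465283). It measured 17.8, 17.6 and 16.4 CPM in old mice and 7.16, 7.10 and 5.05 CPM in young mice. The old mice lay close together and well above the young mice. Mpeg1 rose with a log2 change of 1.42 (SE 0.170, edgeR adjusted p = 0.0468), and the CAST-mother difference was 0.83.

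Pcdhb2 encodes a clustered protocadherin, a family of adhesion molecules by which neurites tell self from other. It measured 13.4, 11.5 and 11.9 CPM in old mice and 4.96, 4.98 and 3.92 CPM in young mice. Pcdhb2 rose with a log2 change of 1.41 (SE 0.166, edgeR adjusted p = 0.0455), and the CAST-mother difference was 0.92. It was the 1 called member of 18 clustered protocadherins tested. Of these, 7 were higher in all 3 old mice and 1 was lower, and the median was 0.15. The family consists of close paralogs between which reads can be split, so single members are uncertain.

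Onecut1 encodes a homeobox transcription factor of liver and of the developing nervous system (chromosome 9, 74861921 to 74891781). It measured 4.81, 7.95 and 5.84 CPM in old mice and 1.50, 0.977 and 1.02 CPM in young mice. Onecut1 rose with a log2 change of 2.41 (SE 0.275, edgeR adjusted p = 0.0444), and the CAST-mother difference was 3.21. The predicted genes Gm20649 (chromosome 9, 74848463 to 74891476) and Gm16551 (chromosome 9, 74847983 to 74860134) lie on the same strand. Gm20649 lies across Onecut1, and Gm16551 lies before the start of Onecut1 and mostly within the span of Gm20649. Gm20649 and Gm16551 rose by 2.60 and 2.72 on the log2 scale (edgeR adjusted p = 0.0444 for both). Reads of the parts that Gm20649 shares with Onecut1 or Gm16551 cannot be told apart, so these genes are not independent. The third predicted gene, Gm12056 (chromosome 11, 22734038 to 22737937), is a long non-coding RNA at 0.706, 0.602 and 0.848 CPM in old and 0.0565, 0.0709 and 0.0683 CPM in young mice. It rose with a log2 change of 3.45 (SE 0.403, edgeR adjusted p = 0.0444).

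**Figure D2:**
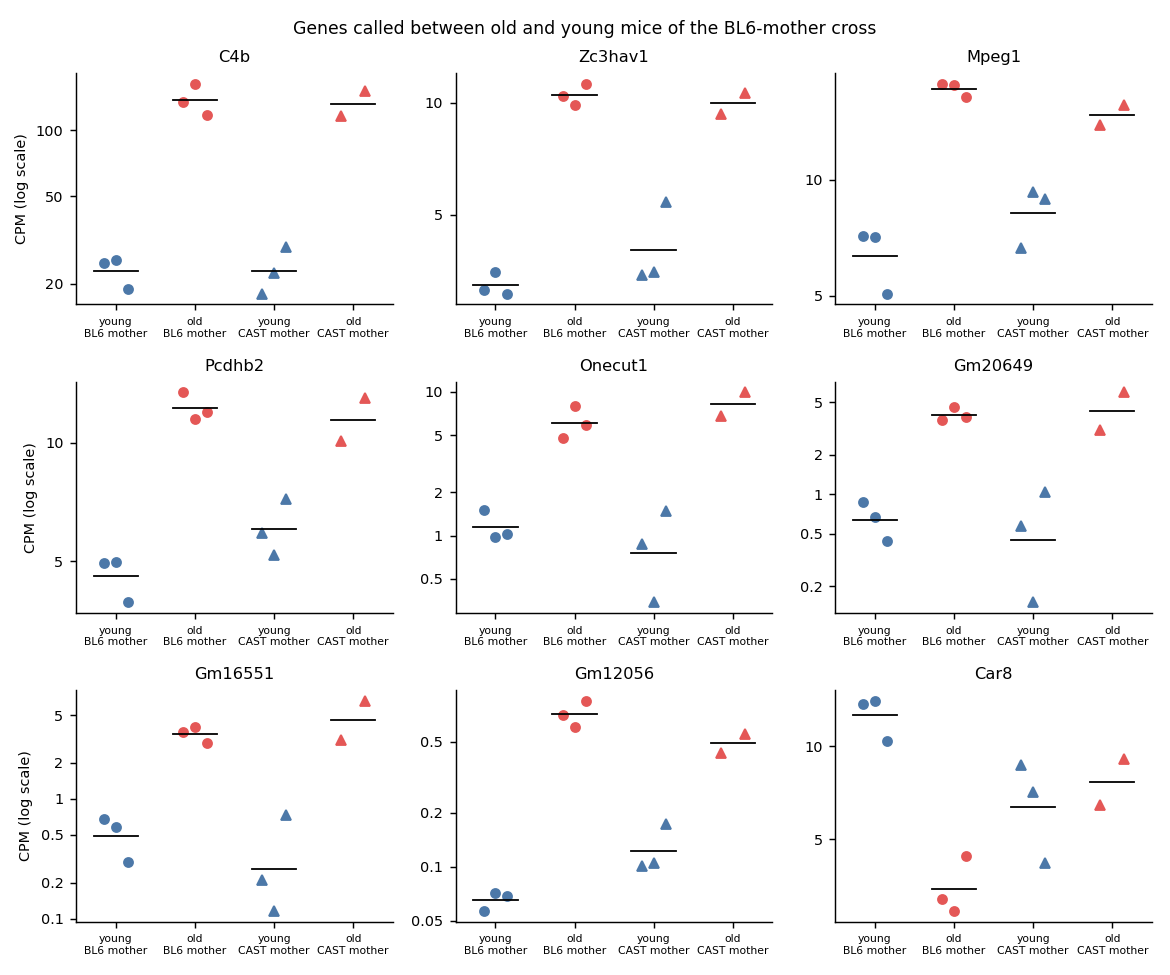
CPM on a log axis of the 9 called genes in each mouse. Each point is 1 mouse, circles are mice with a BL6 mother and triangles mice with a CAST mother, and lines are geometric means. In 8 panels both old groups lie above both young groups, and in the Car8 panel the CAST-mother ages overlap.

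Car8 encodes a carbonic anhydrase-related protein that binds the inositol trisphosphate receptor and is known for its high level in Purkinje cells of the cerebellum (chromosome 4, 8143362 to 8239041). It measured 3.20, 2.93 and 4.43 CPM in old mice and 13.7, 14.0 and 10.4 CPM in young mice. Car8 fell by 1.85 on the log2 scale (SE 0.210, edgeR adjusted p = 0.0444). In CAST-mother mice the ages overlapped, at 6.47 and 9.08 CPM in old and 8.69, 7.10 and 4.18 CPM in young mice, a log2 difference of 0.23. The difference between the crosses had an unadjusted edgeR p of 0.000259, which adjusted over all genes was 0.394.

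Some genes of cerebellar neurons were lower, as Car8 was, in all 3 old mice of the BL6-mother cross. The study also worked with cerebellum, though all 11 libraries are labelled hippocampus. Gabra6, the GABA receptor subunit of cerebellar granule cells, measured 0.0614, 0.399 and 0 CPM in old and 3.56, 3.64 and 1.27 CPM in young mice. In CAST-mother mice it had the other order, with 1.15 and 1.45 CPM in old and 0.163, 0.0811 and 0.0610 CPM in young mice. The groups did not overlap in either cross. Cbln3, a secreted synapse organizer of granule cells, measured 0.166, 1.28 and 0.198 CPM in old and 5.98, 6.77 and 1.59 CPM in young mice. Fat2, a large cadherin of granule cells that was chosen after its values were seen, measured 0.405, 3.36 and 0.347 CPM in old and 16.2, 15.8 and 4.50 CPM in young mice. Both again had old above young in the CAST-mother mice, at 2.55 and 3.29 against 0.272 to 0.381 CPM for Cbln3 and at 7.23 and 8.31 against 0.637 to 2.54 CPM for Fat2.

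Of the 15 genes of a cerebellar list chosen after values were seen, 14 passed the filter in BL6-mother mice. Ppp1r17 (a phosphatase inhibitor of Purkinje cells), Gabra6, Cbln3 and Fat2 were lower in all 3 old mice, none was higher in all 3, and the median was -0.48, against 0.67 in CAST-mother mice. The summed list ran from 35.3 to 73.6 CPM in old and from 60.1 to 99.7 CPM in young mice. Ppp1r17 measured 0.282, 0.308 and 0.359 CPM in old and 0.975, 1.16 and 1.16 CPM in young mice. The list's Gabra6 stood at 0 in old mouse 3, and Skor2, a transcriptional corepressor of Purkinje cells that did not pass the filter, at 0 in old mouse 1. The part of cerebellar RNA in the Car8 result was not tested.

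**Figure D3:**
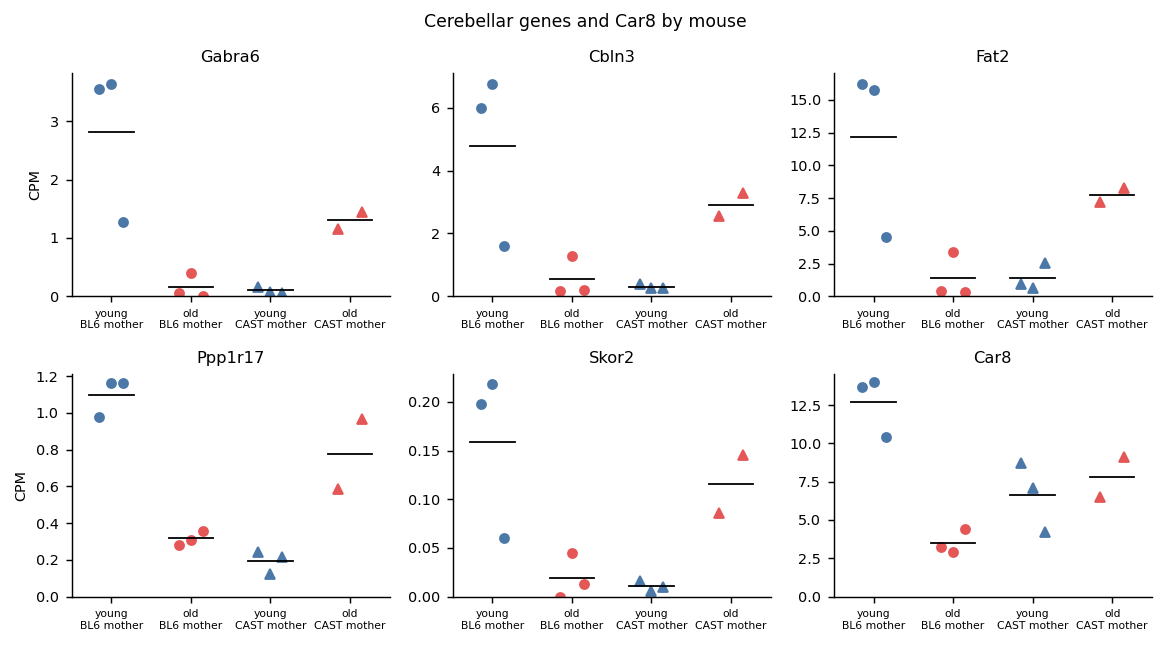
CPM of Gabra6, Cbln3, Fat2, Ppp1r17, Skor2 and Car8 in each mouse. Each point is 1 mouse, circles are mice with a BL6 mother and triangles mice with a CAST mother, and lines are group means. The first 5 genes are higher in young than in old mice with a BL6 mother and higher in old than in young mice with a CAST mother, while Car8 overlaps in the latter.

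The check of direction in CAST-mother mice gave the same sign for 8 of the 9 called genes, all except Car8. These 8 had no overlap between the ages there. Among them, Onecut1, Gm20649 and Gm16551 share a locus, so their agreement is not independent. Of the 29147 genes tested in both crosses, 49.7% had the same sign, and 18.96% showed no overlap in CAST-mother mice in the direction of the BL6-mother change. Among the 3070 genes with an unadjusted p under 0.05 in BL6-mother mice, 2046 (66.6%) had the same sign. The 5 CAST-mother mice on their own gave 0 of 30299 genes called by edgeR (0%) and 4880 at an unadjusted p under 0.05. DESeq2, run without that filter on low counts, called 946 of 43871 genes. The test of whether the age effect differed between the crosses gave 0 of 31355 genes called by edgeR (0%) and 3908 at an unadjusted p under 0.05. DESeq2, again without the filter, called 52 of 46081 genes.

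The remaining genes are described by level, since none of them passed the test over all genes. Counts of genes without overlap are read against the 7.12% of tested genes in which all 3 old mice were above all 3 young mice and the 6.98% in which all 3 were below. The median log2 difference of all tested genes was -0.01. Values of the genes just outside the threshold were an edgeR adjusted p of 0.0571 for Ctss, 0.0595 for Col3a1, 0.0699 for Spag6 and 0.0797 for Gpnmb.

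Genes of activated microglia had mostly higher values in old mice. Of 24 listed genes, 22 passed the filter, 14 were higher in all 3 old mice, none was lower in all 3, and the median log2 difference was 0.45 (0.52 in CAST-mother mice). Itgax, the integrin CD11c, measured 1.11, 1.08 and 0.595 CPM in old and 0.141, 0.153 and 0.0853 CPM in young mice. Clec7a, the glucan receptor dectin-1, measured 0.399, 0.324 and 0.310 CPM in old and 0.0494, 0.0764 and 0.0341 CPM in young mice. Gpnmb, a glycoprotein of lipid-laden phagocytes, stood at 7.11, 9.99 and 6.25 CPM in old and 2.33, 2.65 and 1.88 CPM in young mice. All 3 genes were without overlap in CAST-mother mice too, with log2 differences of 3.24, 3.11 and 1.49 there.

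The homeostatic microglia genes also had higher values in old mice, with 7 of 13 above in all 3 old mice, 13 of 13 positive and a median of 0.44. Gpr34, a lysophosphatidylserine receptor, had a log2 difference of 0.98 and Slc2a5, the microglial fructose transporter, of 0.62. The summed homeostatic list was 344 to 364 CPM in old and 224 to 304 CPM in young mice. Lists of other immune cells had negative medians. Of 7 genes of border macrophages tested, 2 were lower in all 3 old mice, 6 were negative and the median was -0.47 (-0.85 in CAST-mother mice). Of 15 lymphocyte genes 6 passed the filter, 5 of these were negative and the median was -0.50 (0.43 in CAST-mother mice). Their summed list was 6.09, 6.18 and 5.76 CPM in old and 4.75, 4.17 and 21.2 CPM in young mice, so young mouse 3 alone was high. Cd4 measured 17.3 CPM in young mouse 3, against 0.989 and 0.769 CPM in the other young mice. Ptprc, which was positive, was higher in all 3 old mice, with a log2 difference of 0.78. The part of microglial number in the differences of activated genes was not tested. With only young mouse 2 kept in the young group, after leaving out young mice 1 and 3, the medians of the activated and homeostatic lists were 0.31 and 0.17.

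Genes of complement, antigen presentation and lysosomes had mostly higher values in old mice as well. Besides C4b, which was called, 7 of the 19 complement genes tested were higher in all 3 old mice, none was lower in all 3, and the median was 0.55. Of 17 MHC class I and antigen processing genes, 11 were higher in all 3 old mice, 17 of 17 were positive and the median was 0.67. Psmb8, a subunit of the immunoproteasome, measured 2.55, 2.73 and 3.02 CPM in old and 1.27, 1.42 and 0.973 CPM in young mice. H2-D1, a classical class I heavy chain, had 23.5, 24.0 and 25.2 CPM in old and 13.6, 17.2 and 10.5 CPM in young mice, and H2-Q7 a log2 difference of 1.59. H2-Q7 shares reads with near-identical paralogs and is uncertain.

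Of 10 MHC class II genes, 4 were higher in all 3 old mice and the median was 0.66. Ctss, the cathepsin that trims the invariant chain, measured 58.9, 49.6 and 46.8 CPM in old and 24.2, 25.8 and 21.7 CPM in young mice, a log2 difference of 1.11 (SE 0.139). H2-DMb1, a peptide-loading chaperone, differed by 1.07 and H2-Ob by 0.68. Leaving out young mice 1 and 3 took the class II median to 0.13 and the class I median to 0.42.

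Of 25 lysosomal genes, 13 were higher in all 3 old mice, 24 were positive and the median was 0.27. Ctsz, a microglial cathepsin, measured 26.1, 28.2 and 27.0 CPM in old and 17.2, 18.6 and 18.3 CPM in young mice. Of 30 interferon response genes, 26 passed the filter, 9 were higher in all 3 old mice and the median was 0.40. Ifi27 measured 30.5, 30.7 and 28 CPM in old and 15.6, 21.9 and 14.6 CPM in young mice. Trim30a, an interferon-induced ubiquitin ligase, differed by 0.88 and Ifitm3, a membrane restriction factor, by 0.71. These 3 genes had log2 differences of 0.09 to 0.23 in CAST-mother mice, where the ages overlapped. The test of the difference between the crosses gave an unadjusted edgeR p of 0.0365 for Ifi27, 0.0262 for Trim30a and 0.19 for Ifitm3. None passed after adjustment over all genes.

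Reactive astrocyte genes had mostly higher values in old mice, and general astrocyte markers had a smaller median. Of 17 reactive genes, 9 were higher in all 3 old mice, 3 were negative and the median was 0.68, with C4b the called member. Of 14 astrocyte markers, Gfap and S100b were higher in all 3 old mice and the median was 0.16. Gfap, the intermediate filament of astrocytes, measured 766, 636 and 553 CPM in old and 270, 324 and 202 CPM in young mice, a log2 difference of 1.30 (SE 0.200, edgeR adjusted p = 0.135). S100b, a calcium-binding protein, differed by 0.53 and the gap junction gene Gja1 by 0.32. In CAST-mother mice the medians of the reactive and general lists were 0.16 and -0.09.

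The genes of mature oligodendrocytes had a median of 0.20, and 5 of 18 were higher in all 3 old mice. In CAST-mother mice the median was -0.25 and 6 of 18 were positive. There the summed list was 3045 and 3420 CPM in old and 4276, 6091 and 2866 CPM in young mice. Young CAST-mother mouse 1 was also high in thalamic markers and young CAST-mother mouse 2 in striatal markers. The part of tissue composition in this difference was not tested. Apod, a lipid carrier, measured 51.4, 60.1 and 57.1 CPM in old and 31.6, 35.2 and 26.4 CPM in young mice. Il33, an alarmin stored in nuclei of oligodendrocytes and astrocytes, measured 68.5, 49.3 and 71.6 CPM in old and 32.5, 34.8 and 25.1 CPM in young mice. Hapln2, a link protein of the node of Ranvier, differed by 0.69. In CAST-mother mice Apod differed by 0.28 and Il33 by 0.11, the latter with overlap. The test of the difference between the crosses gave unadjusted edgeR p of 0.0156 and 0.0106, and neither passed after adjustment (0.394 for both). The structural myelin genes of the list overlapped between the ages. Of 16 genes of oligodendrocyte precursors, 3 were lower in all 3 old mice and the median was -0.18. Gpr17, a receptor of committed precursors, measured 22.8, 20.3 and 23.7 CPM in old and 38.1, 45.4 and 39.8 CPM in young mice, with no overlap, a log2 difference of -0.88 and an edgeR adjusted p of 0.135. Bmp4, a secreted signal made by committed precursors, differed by -1.36.

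**Figure D4:**
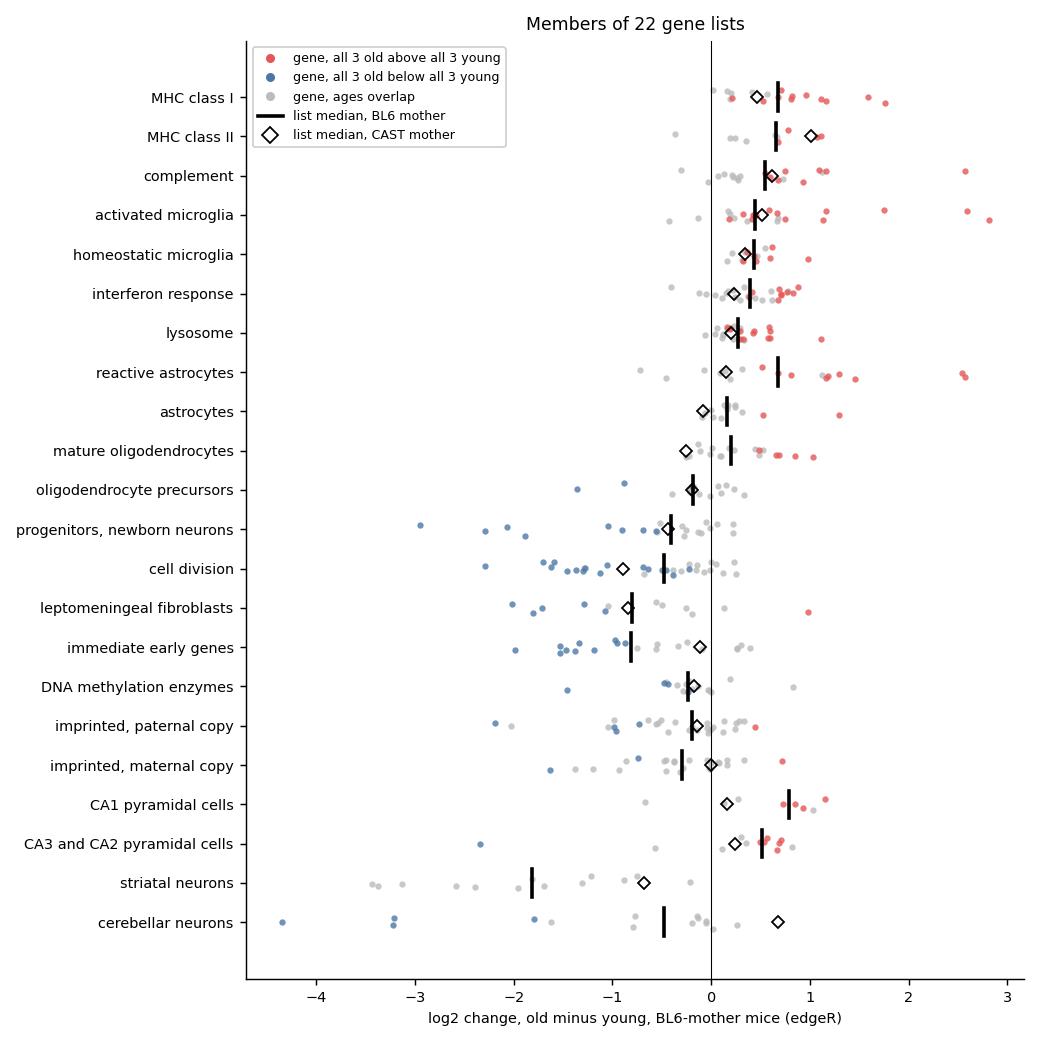
Log2 difference between old and young BL6-mother mice for each member of 22 gene lists that passed the filter on low counts. Red and blue points are genes whose ages do not overlap, bars are list medians in BL6-mother mice and diamonds are list medians in CAST-mother mice. Bars lie right of 0 for the plotted lists of microglia, complement, antigen presentation, interferon response and lysosomes (0.27 to 0.67), left of 0 for cell division (-0.48) and immediate early genes (-0.81), and the diamond of cerebellar neurons lies on the other side of 0 from its bar.

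Genes of dividing progenitors and newborn neurons had mostly lower values in old mice. Of 20 genes of progenitors and newborn neurons, 8 were lower in all 3 old mice, none was higher in all 3, and the median was -0.41 (-0.43 in CAST-mother mice). Eomes, a transcription factor of intermediate progenitors, measured 0.0552, 0.0978 and 0.0929 CPM in old and 0.530, 0.807 and 0.512 CPM in young mice. Draxin, an axon guidance gene, measured 0.325, 0.301 and 0.328 CPM in old and 1.21, 1.77 and 0.981 CPM in young mice. Both were without overlap in each cross, though in CAST-mother mice the nearest Eomes values were 0.336 CPM in an old and 0.475 CPM in a young mouse. The log2 differences were -2.95 for Eomes and -2.07 for Draxin (edgeR adjusted p = 0.122 and 0.148).

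Of 30 cell division genes, 16 were lower in all 3 old mice, none was higher in all 3, 4 were positive and the median was -0.48 (-0.90 in CAST-mother mice). Top2a, the topoisomerase of dividing cells, measured 0.417, 0.978 and 0.266 CPM in old and 2.47, 3.19 and 2.18 CPM in young mice. Aspm, a spindle pole protein, measured 0.632, 0.767 and 0.520 CPM in old and 1.93, 2.13 and 1.77 CPM in young mice. Cenpf, a kinetochore protein, measured 1.01, 1.35 and 0.830 CPM in old and 2.28, 2.89 and 2.47 CPM in young mice. Each of the 3 genes was without overlap in both crosses, with log2 differences of -2.29, -1.62 and -1.28. The list's median lay between -0.51 and -0.44 when single mice were left out.

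The promoters of these 3 genes are shown because 16 of the 30 cell division genes were lower in all 3 old mice and CCAAT boxes, bound by the factor NF-Y, are a known feature of such promoters. The sequences are the 250 bases before the start of each gene, 5′ to 3′ on the gene's strand, from RefSeq (GRCm38.p6). Capitals mark CCAAT on either strand, which reads ATTGG on the reverse strand.
Top2a, chr11:99024190-99024439, minus strand: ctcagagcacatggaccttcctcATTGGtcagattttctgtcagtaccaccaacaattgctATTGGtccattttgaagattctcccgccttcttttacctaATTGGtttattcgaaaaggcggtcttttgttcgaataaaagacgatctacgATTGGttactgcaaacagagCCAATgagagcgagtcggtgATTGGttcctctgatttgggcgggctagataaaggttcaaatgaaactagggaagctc
Aspm, chr1:139454523-139454772, plus strand: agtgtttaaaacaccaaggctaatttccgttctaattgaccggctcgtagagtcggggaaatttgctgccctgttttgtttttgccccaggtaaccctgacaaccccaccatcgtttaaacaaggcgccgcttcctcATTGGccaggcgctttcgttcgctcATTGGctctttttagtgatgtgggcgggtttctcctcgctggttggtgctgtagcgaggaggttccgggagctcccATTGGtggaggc
Cenpf, chr1:189688087-189688336, minus strand: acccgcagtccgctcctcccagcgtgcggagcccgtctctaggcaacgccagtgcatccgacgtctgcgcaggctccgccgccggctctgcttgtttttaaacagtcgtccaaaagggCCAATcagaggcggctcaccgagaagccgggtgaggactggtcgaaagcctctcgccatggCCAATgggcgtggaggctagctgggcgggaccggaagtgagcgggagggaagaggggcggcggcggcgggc
The Top2a promoter holds 6 matches, that of Aspm 3 and that of Cenpf 2. Of the 30 cell division genes, 27 were in the RefSeq table, and 23 of them (85.2%) held CCAAT on either strand, against 37.5% of all 27025 genes in the table. The element TTTGAA, searched on both strands (TTCAAA on the reverse) without regard to any overlap with CCAAT matches, was held by 8 of the 27 (29.6%) against 18.3% of all genes. A match is a description of the sequence and not evidence of binding.

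Genes of leptomeningeal fibroblasts had mostly lower values in old mice, led by fibrillar collagens. Of 12 listed genes, 5 were lower and 1 was higher in all 3 old mice, and the median was -0.80 (-0.84 in CAST-mother mice). Col3a1 measured 1.04, 1.52 and 1.60 CPM in old and 5.00, 5.05 and 4.39 CPM in young mice, a log2 difference of -1.80 (SE 0.228, edgeR adjusted p = 0.0595). Col1a2 measured 3.84, 6.97 and 6.66 CPM in old and 17.1, 25.3 and 14.7 CPM in young mice. Col1a1 differed by -2.02, and young mouse 2 was highest at 30.9 CPM. Among 22 genes of collagen and matrix, which include these 3, 5 were lower in all 3 old mice and the median was -0.05. Whether the amount of meninges on the tissue differed with age was not tested.

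Among genes of motile cilia and ependymal cells, Spag6, a protein of the central pair of ciliary microtubules, was without overlap. It measured 5.79, 5.63 and 7.40 CPM in old and 2.32, 2.28 and 2.07 CPM in young mice, a log2 difference of 1.49 (SE 0.197, edgeR adjusted p = 0.0699), and 1.71 in CAST-mother mice. It was the 1 gene of 14 higher in all 3 old mice, which is near the 7.12% of all tested genes, and the list's median was 0.31. The ciliary dynein Dnah9 differed by 0.67 and the chemoattractant Rarres2 by 0.26, both with overlap.

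Of 15 senescence genes, 12 passed the filter, and the median was 0.13. Cdkn2a, a locus of cell cycle brakes and a common marker of senescence, measured 0.387, 0.436 and 0.372 CPM in old and 0.0283, 0.0873 and 0.137 CPM in young mice. Its log2 difference was 2.27 (edgeR adjusted p = 0.176), and 2.48 in CAST-mother mice. Lmnb1, a nuclear lamina gene, differed by -0.48 and the cytokine gene Il1a by 0.86.

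Immediate early genes, which neurons induce within minutes of activity, had mostly lower values in old mice of this cross, and none was called. Of 20 genes, 10 were lower in all 3 old mice, none was higher in all 3, 4 were positive and the median was -0.81, against -0.12 in CAST-mother mice. There 17 of the 20 genes had the same sign and 7 were positive. Of all genes tested in both crosses, 49.7% had the same sign. Dusp1, a phosphatase that switches off MAP kinases, measured 23.7, 20.3 and 11.9 CPM in old and 66.6, 54.9 and 39.7 CPM in young mice. Ier2 measured 5.04, 6.41 and 3.75 CPM in old and 15.6, 14.5 and 9.17 CPM in young mice. Btg2, an antiproliferative early response gene, measured 20.8, 23.8 and 13.8 CPM in old and 53.8, 47.3 and 31.3 CPM in young mice. Old mouse 3 was lowest of the old and young mouse 3 lowest of the young mice in all 3 genes, and the ages did not overlap.

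The log2 differences were -1.53 for Dusp1, -1.38 for Ier2 and -1.18 for Btg2 (edgeR adjusted p = 0.148, 0.157 and 0.195). In CAST-mother mice they were -0.42, -0.09 and -0.05, with overlap. The test of the difference between the crosses gave unadjusted edgeR p of 0.0324, 0.00685 and 0.0624, and none passed after adjustment. The list's median ran from -1.13 to -0.38 when single mice were left out, and was 0.06 with all 11 mice and a term for Gabra6, Cbln3 and Fat2. The time of day and the handling of the mice before death are not given in the labels.

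The promoters of Dusp1 and Btg2 hold a full cyclic AMP response element, TGACGTCA, which reads the same on both strands and is the site of the activity-regulated factor CREB. They are shown in the same form, with the element in capitals.
Dusp1, chr17:26508473-26508722, minus strand: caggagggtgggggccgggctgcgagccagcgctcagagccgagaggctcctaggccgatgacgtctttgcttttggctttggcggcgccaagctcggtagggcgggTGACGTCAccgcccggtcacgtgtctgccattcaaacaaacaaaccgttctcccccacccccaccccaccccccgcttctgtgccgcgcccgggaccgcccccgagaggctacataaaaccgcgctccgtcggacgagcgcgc
Btg2, chr1:134079156-134079405, minus strand: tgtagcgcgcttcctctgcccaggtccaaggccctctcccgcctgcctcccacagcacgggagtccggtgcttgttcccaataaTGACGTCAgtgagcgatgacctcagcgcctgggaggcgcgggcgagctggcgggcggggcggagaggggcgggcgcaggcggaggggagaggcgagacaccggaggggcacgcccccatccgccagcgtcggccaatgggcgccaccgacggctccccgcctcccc
Of the 20 immediate early genes, 16 were in the RefSeq table. These 2 were the ones that held the full element within 250 bases (12.5%), against 1.77% of all 27025 genes. Ier2 is not in the RefSeq table.

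Among 12 genes induced by glucocorticoids, 1, Fkbp5, was higher in all 3 old mice, which is near the 7.12% of all tested genes. Fkbp5 encodes a chaperone that dampens the glucocorticoid receptor. It measured 104, 102 and 77.5 CPM in old and 45.6, 70.3 and 57.7 CPM in young mice, a log2 difference of 0.71 (SE 0.184, edgeR adjusted p = 0.278). In CAST-mother mice the difference was -0.20, with overlap. The test of the difference between the crosses gave an unadjusted edgeR p of 0.00918, which adjusted over all genes was 0.394. Zbtb16 and Errfi1 differed by 0.37 and 0.47 with overlap, and the list's median was 0.26 against -0.43 in CAST-mother mice.

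The enzymes of DNA methylation and demethylation had mostly lower values in old mice, and none was called. Their median difference was small, and that of Uhrf1 was the largest. Of 16 genes, 4 were lower and none was higher in all 3 old mice, 14 were negative and the median was -0.23 (-0.18 in CAST-mother mice). Uhrf1, a reader of hemimethylated DNA that recruits Dnmt1 and is high in dividing cells, measured 0.583, 0.918 and 0.483 CPM in old and 1.45, 1.99 and 1.95 CPM in young mice. Tet1, which oxidizes 5-methylcytosine, measured 18.8, 15.8 and 20.1 CPM in old and 29.7, 24.0 and 22.2 CPM in young mice. Dnmt3a, the main de novo methyltransferase of neurons, measured 120, 141 and 128 CPM in old and 165, 143 and 219 CPM in young mice, so that old mouse 2 and young mouse 2 nearly met.

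The log2 differences were -1.46 for Uhrf1, -0.48 for Tet1 and -0.44 for Dnmt3a (edgeR adjusted p = 0.217, 0.364 and 0.423). The maintenance enzyme Dnmt1 measured 50.6, 54.1 and 61.4 CPM in old and 67.2, 62.1 and 66.5 CPM in young mice, a difference of -0.24. The ages overlapped in the other 12 genes. These differences were -0.29 for Dnmt3b, 0.83 for Dnmt3l (at most 0.184 CPM in any mouse of this cross), -0.13 for Uhrf2, -0.26 for Tet2 and -0.23 for Tet3. The base excision genes Tdg and Smug1 differed by -0.02 and -0.03, and Mbd4 by -0.0058. The deaminase gene Apobec1 differed by 0.19, and Gadd45a, Gadd45b and Gadd45g by -0.20, -0.35 and -0.46.

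Imprinted genes, of which only the maternal or the paternal copy is active, had mostly slightly lower values in old mice, and few of them were separated by age. Of 29 paternally expressed genes tested, 4 were lower and 1 was higher in all 3 old mice, 21 were negative and the median was -0.20. The median was -0.14 in CAST-mother mice, where 11 of the 29 had the same sign. Peg10, a gene derived from a retrotransposon, measured 8.62, 8.46 and 8.96 CPM in old and 14.7, 13.5 and 22.7 CPM in young mice. Mest, a hydrolase-like gene of growing tissue, measured 25.1, 24.2 and 33.0 CPM in old and 39.9, 45.3 and 51.7 CPM in young mice. The log2 differences were -0.96 and -0.73 (edgeR adjusted p = 0.217 and 0.225), and 0.83 and 0.32 in CAST-mother mice, where the ages overlapped. For the difference between the crosses, unadjusted edgeR p was 0.00328 for Peg10 and 0.00849 for Mest. Neither passed after adjustment over all genes (0.394 for both). Old CAST-mother mouse 1, at 40.1 CPM of Peg10 and 49.3 CPM of Mest, was the highest of the CAST-mother mice for both genes. Mkrn3, a ring finger gene of the Prader-Willi region, differed by -0.98, and by -0.99 in CAST-mother mice.

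Of 24 maternally expressed genes tested, 2 were lower and 1 was higher in all 3 old mice, 18 were negative and the median was -0.30, against -0.0040 in CAST-mother mice. Both counts without overlap are near those of all genes. Rian, a non-coding RNA of the Dlk1 to Meg3 region, measured 331, 319 and 282 CPM in old and 575, 395 and 588 CPM in young mice. H19, a non-coding RNA of growing tissue, measured 0.0859, 0.218 and 0.136 CPM in old and 0.403, 0.633 and 0.239 CPM in young mice. Their log2 differences were -0.74 and -1.64 (edgeR adjusted p = 0.242 and 0.325), and Mirg, beside Rian, differed by -0.86 with overlap. H19 differed by 0.30 in CAST-mother mice, with overlap. For its difference between the crosses, edgeR p was 0.0165 unadjusted and 0.394 adjusted over all genes.

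**Figure D5:**
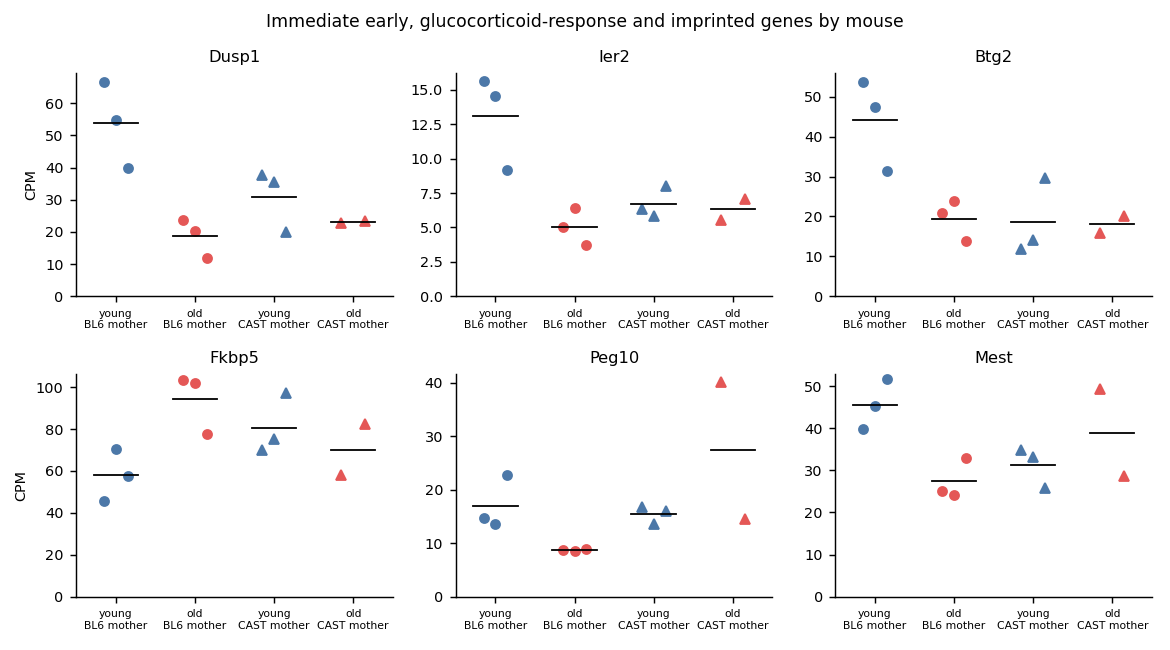
CPM of Dusp1, Ier2, Btg2, Fkbp5, Peg10 and Mest in each mouse. Each point is 1 mouse, circles are mice with a BL6 mother and triangles mice with a CAST mother, and lines are group means. In BL6-mother mice the ages do not overlap in any panel, and in CAST-mother mice they overlap in every panel.

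Many genes of the CA fields had higher values in old mice of this cross, together with the low CA1 sums of young mice 1 and 3, and the dentate granule cell and general excitatory lists differed less. Of 12 dentate genes, 2 were higher in all 3 old mice, 3 were negative and the median was 0.14. Of 10 excitatory genes, 2 were higher in all 3 old mice, 4 were negative and the median was 0.16. Of 8 CA1 genes, 4 were higher in all 3 old mice and the median was 0.79 (0.16 in CAST-mother mice). Gpr161, an orphan receptor of cilia, measured 129, 93.1 and 78.3 CPM in old and 37.4, 73.6 and 46.2 CPM in young mice. Wfs1, an endoplasmic reticulum protein that marks CA1, measured 316, 328 and 293 CPM in old and 95.4, 241 and 182 CPM in young mice, and Lefty1 differed by 1.15. Leaving out young mice 1 and 3 took the CA1 median to 0.22. Of 12 CA3 and CA2 genes, 6 were higher and 1, Coch, was lower in all 3 old mice, and the median was 0.51, or 0.18 without those 2 mice. Cpne4 differed by 0.53 and Amigo2 by 0.71, while Coch, an extracellular matrix protein, differed by -2.34 and was highest in young mouse 3 at 32.5 CPM.

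Among 19 glutamate receptor and synapse genes, 3 were higher and 5 lower in all 3 old mice and the median was 0.12. Gria1, an AMPA receptor subunit, measured 1469, 1285 and 1153 CPM in old and 741, 1022 and 785 CPM in young mice, a log2 difference of 0.62. Grik1, a kainate receptor subunit, measured 10.8, 9.57 and 12.1 CPM in old and 21.8, 14.6 and 22.7 CPM in young mice, a difference of -0.86. Homer1, a postsynaptic scaffold, differed by -0.50. In CAST-mother mice the differences were -0.11 for Gria1, -0.19 for Grik1 and -0.45 for Homer1.

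The striatal genes had a median of -1.82 without any of the 13 being separated by age, with young mouse 3 alone high. Adora2a, an adenosine receptor of striatal projection neurons, measured 1.00, 3.48 and 2.64 CPM in old and 1.07, 2.41 and 73.6 CPM in young mice. Adora2a and Tac1 differed by -3.44 and -1.96 with overlap. Without young mouse 3 the list's median was 0.24. Among 12 endothelial genes, 1, Vwf, was higher in all 3 old mice (19.2, 38.9 and 31.1 CPM against 13.3, 16.5 and 16.3 CPM). This count is near the 7.12% of all tested genes. The endothelial median was 0.28 against -0.46 in CAST-mother mice. Pecam1 and Slc2a1 differed by 0.50 and 0.31 with overlap. In the test of the difference between the crosses Slc2a1 had an unadjusted edgeR p of 0.000925, which adjusted over all genes was 0.394.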

How the data were processed

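Poly(A) RNA of 11 dissected hippocampi was sequenced as paired reads. The count table was deposited by the authors as raw counts per gene. Per the submitters' processing notes the tools were bcl2fastq 2.20, Trim Galore 0.6.6, HISAT2 2.1.0, SAMtools 1.10 and featureCounts of Subread 2.0.0, with build GRCm38. For the strand setting and the annotation release, the answer is not given in the sources used here. TPM values deposited by the authors were used only to give the level of C4b per gene length. The 6 BL6-mother mice were fitted alone with edgeR 4.0.16 in R 4.3.3 (filterByExpr with a minimum count of 10, TMM scaling, quasi-likelihood F-test, Benjamini-Hochberg adjustment over all genes tested, threshold 0.05). The 5 CAST-mother mice were fitted and scaled on their own, and all 11 mice were fitted for the difference between crosses. SE is the log2 change divided by the root of F. Overlap was judged on CPM of single mice.

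Alternatives used DESeq2 1.42.0, limma-voom (limma 3.58.1), other scaling and filters, marker terms and left-out mice. The script was tested on simulated data. Named genes were the called genes, the next decreases with a mean of at least 1 CPM, and up to 3 members of each described list with the smallest p, with all DNA methylation genes; some list members are not reported here. The members and the gene lists were chosen with earlier results of these data known. Gene types and positions came from GENCODE M21 and promoters from RefSeq (GRCm38.p6). Allele-specific counts were not used here. Nothing in the labels gives a batch or the litter of a mouse. With 111.1 to 190.5 M counts, genes of 1 CPM rest on over 100 counts in each library. Whether the spread between mice limits precision more than counting at that level was not tested. Genes far below 1 CPM rest on few counts, and counting adds to their uncertainty. Among them are the called Gm12056 (0.0565 to 0.0709 CPM in young mice), Clec7a, Cdkn2a, Eomes, Gabra6 and Skor2.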

Additional observations from a re-analysis of the deposited data

Results flagged for a closer look

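Age differences in 5 genes of cerebellar neurons had opposite directions in the crosses, with every old mouse below every young mouse when the mother was BL6 and every old mouse above every young mouse when the mother was CAST. The log2 difference between the crosses (CAST mother minus BL6 mother) was 3.74 for Ppp1r17, 8.04 for Gabra6, 6.42 for Cbln3, 5.62 for Fat2 and 6.53 for Skor2. In edgeR's test of that difference, adjusted over all genes, p was 0.138 for Ppp1r17, 0.154 for Gabra6 and Skor2, 0.222 for Cbln3 and 0.394 for Fat2, so none passed. Skor2 was at most 0.218 CPM in any mouse and did not pass the filter in BL6-mother mice. The 5 genes belong to the cerebellar list, which was chosen after values were seen. Of all 29147 genes tested in both crosses, 122 (0.419%) were lower in old BL6-mother and higher in old CAST-mother mice without overlap.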

How the results depend on the processing

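The 9 called genes (8 higher, 1 lower) became 586 (215 higher, 371 lower) with DESeq2, 3 (3, 0) with edgeR's legacy quasi-likelihood, 2 (2, 0) with upper-quartile factors, 10 (8, 2) with RLE factors, 10 (9, 1) with limma-voom, 23 (15, 8) with no filter, 2 (2, 0) with a filter of at least 1 CPM in 3 mice and 12 (10, 2) with all 11 mice in 4 groups. A term for striatal or for choroid plexus markers left 1 (1, 0), and one for CA1 and dentate markers 3 (1, 2). Leaving out single mice gave 0 to 43 (0 to 15 higher, 0 to 28 lower). Alternatives added after seeing the data gave 6 (1, 5) without young mice 1 and 3, where the lone young mouse is assumed to vary like the others, 0 (0, 0) without old mouse 2 and young mouse 2, and 2 (1, 1) with all 11 mice and a term for Gabra6, Cbln3 and Fat2. The DESeq2 fit also lacked the filter on low counts that the main fit used. The causes were not tested.

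The share of called genes with the same direction in CAST-mother mice ran from 33.3% (1 of 3 genes, without young mouse 3 of the BL6 mother) to 100% when single mice were left out. The age effect differed between crosses in 52 genes with DESeq2, 2 with no filter and 0 to 7 when single mice were left out.

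Some log2 changes turned sign, small ones and also those of Adora2a, Cbln3 and Fat2 (-3.44, -3.23 and -3.22). Adora2a was 0.20 with the striatal term and -4.00 to 0.41 when single mice were left out. With the term for Gabra6, Cbln3 and Fat2, which is built from values of these genes themselves, Cbln3 was 0.25, Fat2 0.40, Dnmt3b 0.33, Mbd4 0.060, Gadd45b 0.16 and Gadd45g 0.32. Tdg was 0.0020 with 11 mice, 0.00044 with the choroid term and 0.052 without old mouse 2 and young mouse 2. Smug1 was 0.047 with the CA1 and dentate term and 0.054 without young mice 1 and 3. Mbd4 was 0.012 with DESeq2, 0.030 with limma-voom, 0.0018 with RLE factors, 0.0057 with no filter, 0.015 with 11 mice, 0.19 with the CA1 and dentate term and 0.32 without young mice 1 and 3. Apobec1 was -0.023 without old mouse 2 and young mouse 2. Leaving out single mice gave -0.073 to 0.051 for Tdg, -0.080 to 0.0087 for Smug1, -0.16 to 0.21 for Mbd4 and -0.073 to 0.37 for Apobec1.

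No paired analysis was possible because the labels give no pairing of old with young mice and replicate numbers follow the order of deposit. With 3 mice of each age, differences of the size of the spread between mice were not detectable.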

Other observations

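Ribosomal protein genes had small positive log2 differences between old and young BL6-mother mice in 30 of 30 members, with a median of 0.23, and 3 were higher in all 3 old mice. Genes of oxidative phosphorylation were positive in 29 of 30 members with a median of 0.17, and none was without overlap between the ages. In CAST-mother mice these medians were 0.04 and -0.17. Of 15 heat shock genes, 4 were higher in all 3 old mice, with a median of 0.11. Cholesterol synthesis genes (18, median 0.02) and presynaptic genes (18, median 0.11) held no gene without overlap. Of 16 circadian genes tested, 1 was higher and 2 were lower in all 3 old mice, with a median of -0.06. The 12 genes known to escape X inactivation had a median of -0.07, and none was without overlap.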
